A study of Homo sapiens with 6 samples.

Results

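The bone morphogenetic protein (BMP) pathway of LX-2 cells was examined through 10 genes: the ligand BMP4, the receptors BMPR1A and BMPR2, the signal-carrying SMADs SMAD1 and SMAD5, the inhibitory SMAD6, the target genes ID1, ID2 and ID3, and the secreted antagonist GREM1. They were taken by gene symbol, and all 10 were found among the 16907 symbols of the count files and passed the filter on low counts, which 14853 genes passed. LX-2 is an immortalised human hepatic stellate cell line used as a model of liver myofibroblasts. Cells in serum-containing medium were transfected with 20 nM siRNA and harvested after 72 h, with either a control siRNA (siControl, 3 libraries) or a pool of siRNAs against OGT (siOGT, 3 libraries), and no BMP or TGF-β treatment is named in the labels. OGT adds single N-acetylglucosamine sugars to serines and threonines of nuclear and cytosolic proteins (O-GlcNAcylation). Libraries with the same replicate number came from the same one of 3 independent experiments with this 1 cell line.

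BMP dimers bring together a type II receptor such as BMPR2 and a type I receptor such as BMPR1A, and the type I receptor then phosphorylates SMAD1, SMAD5 and SMAD9. These bind SMAD4, enter the nucleus and switch on target genes, among which the ID genes respond early and strongly. ID proteins pair with E proteins and keep them from binding DNA. SMAD6 dampens the pathway inside the cell and GREM1 captures ligands outside it, and in the liver BMP signals are known for the control of hepcidin and are also studied in stellate cell activation.

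The promoter of ID1 carries a composite sequence that SMAD1, SMAD5 and SMAD4 are known to bind, a GC-rich element beside a SMAD4 element. Its letters, GGCGCCANNNNGNC, were searched on both strands of hg38 in the 2000 bases before the MANE Select start of each gene. This motif was chosen with the expression values already known. Because it is known from the ID1 promoter, its match there was given in advance. The motif was present before ID1, which was not the only one of the 10 genes with a match. It was present in the windows of 3.2% of 15706 genes, whereas the shorter GGCGCC, which is part of it, was present in 50.5% of these windows. No match was found for ID2 or ID3. 2 matches are printed below with 40 bases on each side on the gene's strand, with the fixed letters of both elements and the base between the last 2 fixed letters in capitals. ID1 and BAMBI, a decoy receptor gene that is described further on, are shown because they are textbook BMP targets. Other listed genes also had matches, so the printed ones do not show that the motif marks BMP targets.
ID1, chr20:31604284-31604377, plus strand, 965 bases before the start: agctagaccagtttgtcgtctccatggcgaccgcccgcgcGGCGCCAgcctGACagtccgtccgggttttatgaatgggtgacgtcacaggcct
BAMBI, chr10:28676747-28676840, plus strand, 734 bases before the start: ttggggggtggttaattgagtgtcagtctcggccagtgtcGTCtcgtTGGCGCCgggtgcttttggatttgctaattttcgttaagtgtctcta
In BAMBI the motif lies on the opposite strand and reads as its reverse complement. The 24 bases at the centre of the match occurred 1 time each in the chromosomes of hg38 for ID1 and BAMBI. A match is a description of letters and not a measured binding site.

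The libraries held 25996770 to 27966801 expected counts, and TMM scaling factors lay between 0.979 and 1.019. OGT was at 145 ± 28.9 CPM (counts per 1000000 of the scaled library total, SD, n = 3) in siControl and at 32.0 ± 6.94 CPM in siOGT, a log2 fold change (log2 FC) of -2.18 with an edgeR adjusted p of 2.712e-12. Of the stellate markers, COL1A1 (2658 CPM in siControl), VIM (3200 CPM), COL1A2, TIMP1 and PDGFRB were abundant, ACTA2 was low at 6.55 CPM, DES was at 0.135 CPM, and LRAT, which marks the quiescent state, did not pass the filter. COL1A1 (log2 FC -0.39, adjusted p = 0.001113), COL1A2 (-0.32, adjusted p = 0.01067) and PDGFRB (-0.32, adjusted p = 0.004727) were called lower in siOGT, and the summed stellate markers lay between 6390 and 7540 CPM in siControl and between 5630 and 6600 CPM in siOGT. The summed markers of immune cells lay between 131 and 162 CPM in siControl and between 176 and 208 CPM in siOGT, almost all from CD68, while the defining marker PTPRC was at 0.536 and 0.520 CPM. Endothelial markers summed to 3.29 to 7.86 CPM in siControl and to 3.00 to 5.87 CPM in siOGT. Of the 4 endothelial markers tested 1 was called, VWF, lower in siOGT at few reads (2.60 and 1.35 CPM, log2 FC -0.93, adjusted p = 0.01075). The part of these marker differences in the results below was not tested. Hepatocyte markers summed to 3.38 to 4.52 CPM over the 6 libraries and cholangiocyte markers, mostly SOX9, to 88.6 to 129 CPM. These are RNA levels of whole cultures, in which fewer cells of a kind and less RNA per cell cannot be told apart.

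A gene is termed called where the edgeR quasi-likelihood test with the replicate number as a block gave a Benjamini-Hochberg adjusted p of at most 0.05. Of the 10 genes 2 were called, BMP4 and SMAD6, both lower in siOGT, where 25.4% of all tested genes were called and 12.7% were called lower. A share of 2 in 10 was thus near that of all genes. In 4 of the 10 genes all 3 pairs moved in the same direction, against 54% of all genes, and in 1 of the 10 the CPM of the groups did not overlap, against 23.9%. The median log2 FC of the 10 genes was -0.04, beside 0.01 over all genes. Their log2 FC ranged from -0.30 (BMP4) to 0.30 (ID2).

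**Figure D1:**
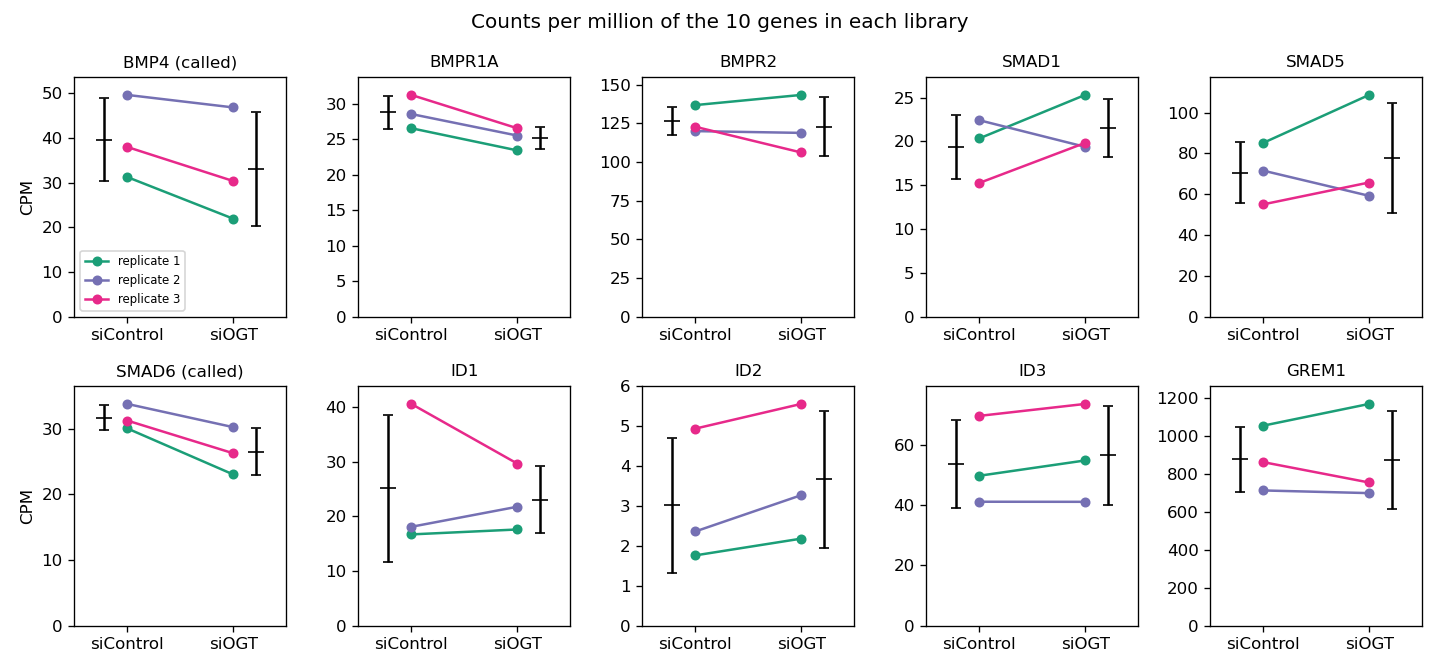
CPM of the 10 genes (vertical axis, from 0) in the siControl and siOGT libraries, with 1 line per replicate number joining the libraries of a pair and black bars for mean ± SD (n = 3). For BMP4, BMPR1A and SMAD6 the siOGT point is below its partner in every pair and for ID2 above it, while the lines of the other genes differ in direction.

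BMP4 (chr14:53949736-53958761, hg38, minus strand), a ligand made by many mesenchymal cells, was lower after OGT silencing. Its level was 31.2, 49.6 and 37.98 CPM in siControl 1, 2 and 3 and 21.9, 46.9 and 30.4 CPM in siOGT 1, 2 and 3. The siOGT library was below its own partner in each pair, but the groups overlapped because both libraries of replicate 2 were higher than all others. BMP4 fell by 0.30 on the log2 scale (SE 0.083, 95% confidence interval -0.47 to -0.12, edgeR adjusted p = 0.01383). The pairs differed in size, with log2 ratios of -0.51, -0.08 and -0.32. Without the replicate block the log2 FC was -0.26 and the adjusted p 0.6305. Leaving out replicate 1, which had the largest fall, gave a log2 FC of -0.20 and an adjusted p of 0.2011.

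BMPR1A (chr10:86756596-86932825, plus strand), a type I receptor for BMP4, was measured at 26.5, 28.5 and 31.2 CPM in siControl and at 23.4, 25.5 and 26.5 CPM in siOGT. Its siOGT level was below that of the partner in all 3 pairs by similar amounts, with log2 ratios of -0.18, -0.16 and -0.23. The groups touched but did not overlap, the lowest siControl and the highest siOGT library both lying at 26.5 CPM. With a log2 FC of -0.19 (SE 0.076, 95% confidence interval -0.35 to -0.03) and an edgeR adjusted p of 0.0727, BMPR1A did not pass the test, and no alternative called it. Its counts were fractional in all 6 libraries, so some of its reads were shared with other loci, and its level is uncertain to that extent.

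BMPR2 (chr2:202376327-202567751, plus strand), the type II receptor that binds BMPs selectively, gave 136.8, 119.97 and 122.8 CPM in siControl and 143.4, 118.8 and 106.2 CPM in siOGT. Its pairs did not share a direction, and both libraries of replicate 1 were the highest. The log2 FC was -0.05 with a 95% confidence interval of -0.20 to 0.09 (adjusted p = 0.6373).

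SMAD1 (chr4:145481194-145559176, plus strand) and SMAD5 (chr5:136132845-136188747, plus strand), the factors that carry the BMP signal to the nucleus, moved alike from library to library. SMAD1 was at 20.4, 22.4 and 15.3 CPM in siControl and at 25.3, 19.4 and 19.8 CPM in siOGT. SMAD5 was at 85.1, 71.5 and 55.0 CPM in siControl and at 108.7, 59.2 and 65.7 CPM in siOGT. Both were higher in siOGT in replicates 1 and 3 and lower in replicate 2, with log2 ratios of 0.31, -0.21 and 0.38 for SMAD1 and 0.35, -0.27 and 0.26 for SMAD5. Neither was called over the 3 pairs. The log2 FC of SMAD1 was 0.16 (95% confidence interval -0.06 to 0.38, adjusted p = 0.2836). That of SMAD5 was 0.12 (95% confidence interval -0.08 to 0.31, adjusted p = 0.3943). Without replicate 2 both were called, SMAD1 with a log2 FC of 0.34 (adjusted p = 0.01523) and SMAD5 with 0.30 (adjusted p = 0.006304), which took the number of called genes from 2 to 4. Per length, SMAD5 exceeded SMAD1 by a ratio of 1.791, 1.365 and 1.542 in siControl and 1.84, 1.31 and 1.42 in siOGT, a ratio chosen after its values were seen and not tested. SMAD5 counts were fractional in 3 libraries.

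SMAD6 (chr15:66702236-66782849, plus strand), an inhibitory SMAD that preferentially blocks BMP type I receptors and is itself a BMP target, was lower after OGT silencing. The siControl libraries had 30.04, 33.8 and 31.2 CPM and the siOGT libraries 23.0, 30.2 and 26.3 CPM. All 3 pairs fell, and the groups overlapped only in that siOGT 2 lay just above siControl 1. SMAD6 fell by 0.26 on the log2 scale (SE 0.078, 95% confidence interval -0.43 to -0.10, edgeR adjusted p = 0.01898). Without the replicate block the log2 FC was -0.26 (adjusted p = 0.3017), and DESeq2 with the block gave -0.27 (adjusted p = 0.08203). Without replicate 1 the log2 FC was -0.21 (adjusted p = 0.1997), and then none of the 10 genes was called, nor did any have an unadjusted edgeR p under 0.05.

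**Figure D2:**
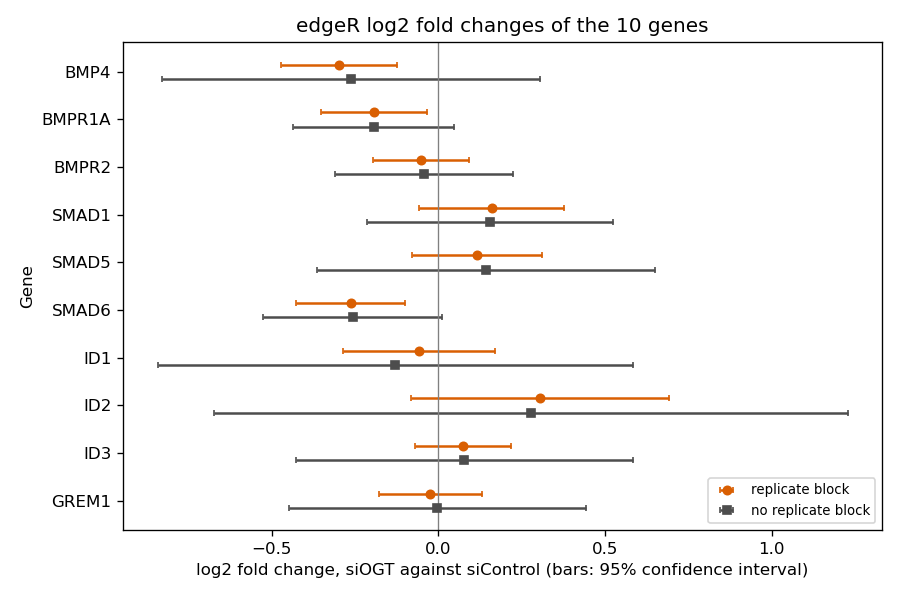
Log2 FC of siOGT against siControl for the 10 genes (horizontal axis) from edgeR with the replicate number as a block (circles) and without it (squares), with 95% confidence intervals. With the block the intervals of BMP4, BMPR1A and SMAD6 lie below 0, and without it all 10 intervals include 0, the median width being 0.338 with and 0.952 without the block.

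ID1 (chr20:31605283-31606515, plus strand), a direct SMAD1 and SMAD5 target whose composite sequence is printed above, was not called. Its level was 16.7, 18.1 and 40.6 CPM in siControl and 17.6, 21.7 and 29.6 CPM in siOGT. Both libraries of replicate 3 stood above the other 4, and it is in replicate 3 that siOGT was below its partner, with log2 ratios of 0.08, 0.27 and -0.45 in replicates 1, 2 and 3. The log2 FC was -0.06 (SE 0.109, 95% confidence interval -0.29 to 0.17, adjusted p = 0.7454). Leaving out replicate 3 turned it to 0.17 (adjusted p = 0.252).

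ID2 (chr2:8678845-8684461, plus strand), a further member of the same helix-loop-helix family, was the least abundant of the 10 genes. Counts were 47, 60 and 138 in siControl and 59, 88 and 149 in siOGT, which corresponded to 1.76, 2.36 and 4.94 CPM and to 2.18, 3.27 and 5.56 CPM. In each pair siOGT was the higher library, by log2 ratios of 0.30, 0.46 and 0.17, yet the differences between replicates were far larger than those within pairs. The log2 FC of 0.30 did not pass the test (SE 0.184, 95% confidence interval -0.08 to 0.69, adjusted p = 0.2497). This interval was the widest of the 10 genes, and at these counts a rise of 0.30 was not distinguishable from 0.

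ID3 (chr1:23557926-23559501, minus strand), the most abundant ID gene, gave 49.7, 41.1 and 69.6 CPM in siControl and 54.8, 41.1 and 73.5 CPM in siOGT. Libraries of a pair lay close together and replicate 3 was again the highest. The log2 FC was 0.07 (SE 0.068, 95% confidence interval -0.07 to 0.22, adjusted p = 0.4667). For the ID genes, then, the 2 highest libraries were siControl 3 and siOGT 3 in all 3 genes.

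**Figure D3:**
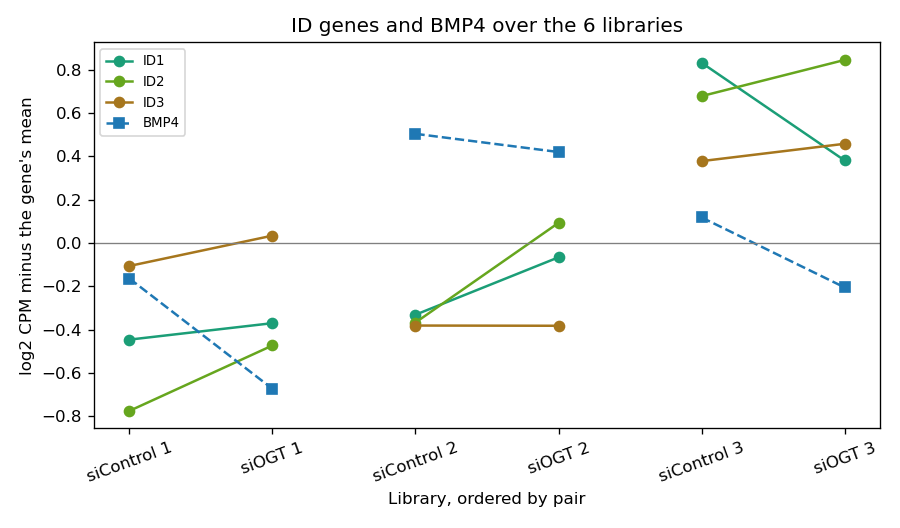
Log2 CPM minus the gene's own mean (vertical axis) for ID1, ID2, ID3 and BMP4 in the 6 libraries, with lines joining the 2 libraries of a pair only. ID1, ID2 and ID3 are highest in both libraries of replicate 3 and BMP4 in both libraries of replicate 2.

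The mean centred log2 CPM of the 3 ID genes was -0.44, -0.36 and 0.63 in siControl and -0.27, -0.12 and 0.56 in siOGT. BMP4 RNA did not follow this order, being highest in replicate 2. Among 9611 genes that averaged 10 CPM or more, the 5 most like this ID mean over the 6 libraries were HRAS (r = 0.994), FAM50A (0.989), RMDN3 (0.983), MRGBP (0.978) and CCNYL1 (0.976), whereas the median r was 0.03. HRAS encodes a small GTPase of growth factor signalling. These correlations describe 6 libraries that come as 3 pairs, and the replicate 3 pair stands apart. Over the 4 libraries without it, r was 0.992 for HRAS, 0.99 for FAM50A, 0.949 for MRGBP, 0.616 for RMDN3 and 0.488 for CCNYL1. The 5 genes were picked as the highest r of 9611 genes with these same libraries. High values follow from that choice and are no independent support. None of the 5 genes was called, their log2 FC lying between 0.00 and 0.08.

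GREM1 (chr15:32718004-32745106, plus strand), a secreted protein that traps BMP2, BMP4 and BMP7, had the highest mean CPM of the 10 genes. By mean CPM, which is not corrected for transcript length, it ranked 91 of 14853 genes. Its transcript was 14575 bases long, against 950 for ID3. It reached 1055, 713 and 863 CPM in siControl and 1170, 699 and 755 CPM in siOGT. Both libraries of replicate 1 were the highest and the 3 pairs went in different directions. Its log2 FC was -0.02 (SE 0.073, 95% confidence interval -0.18 to 0.13, adjusted p = 0.8523), and it was 0.05 without replicate 3. Scaled to transcript length, GREM1 exceeded BMP4 in every library, by a ratio of 4.48, 1.90 and 3.01 in siControl and 7.07, 1.98 and 3.30 in siOGT. This ratio was higher in siOGT in each pair, with log2 differences of 0.66, 0.06 and 0.13, and as it was chosen after its values were seen it was not tested.

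Levels were compared between genes as TPM, which divide counts by transcript length before scaling to the library, estimated here with the length of the MANE Select transcript. In siControl the order was GREM1 (159 ± 35.6 TPM, SD, n = 3), ID3 (148 ± 42.2), ID1 (67.2 ± 36.2), BMP4 (53.7 ± 10.95), BMPR2 (27.6 ± 2.74), SMAD5 (26.5 ± 6.06), SMAD6 (21.7 ± 0.64), SMAD1 (16.9 ± 3.03), BMPR1A (11.8 ± 0.94) and ID2 (6.11 ± 3.45). GREM1 and ID3 overlapped in their TPM ranges, as did ID1 and BMP4, BMPR2 and SMAD5, and SMAD5 and SMAD6, and the other neighbours were apart. In siOGT the TPM order was the same for the first 4 genes, and SMAD5 (30.02 ± 11.6 TPM) then stood above BMPR2 (27.4 ± 5.28) and SMAD1 (19.3 ± 3.76) above SMAD6 (18.5 ± 1.96), each with ranges that overlapped. BMPR1A (10.5 ± 0.33 TPM) and ID2 (7.51 ± 3.36), the last in the order, also overlapped there.

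The replicate number carried more of the variance of these genes than the group did. Its share of the variance of log2 CPM was 98.0% for ID3, 93.8% for GREM1, 92.3% for ID2 and 89.1% for ID1, and between 79.7% and 80.8% for BMP4, BMPR2 and SMAD5. SMAD6 and BMPR1A were the 2 genes in which the group had the larger share, with 53.2% and 55.5%. The median shares over the 10 genes were 80.4% for the replicate and 5% for the group, beside 48.6% and 27.1% over the 12373 genes that averaged 1 CPM or more. The replicate number has 3 levels and the group 2, so the replicate share tends to be the larger even without an effect. From the lowest to the highest library ID2 varied 3.16-fold, ID1 2.43-fold and BMP4 2.27-fold in CPM, where the median gene varied 1.40-fold. The replicates did not vary together as 1 pathway: replicate 1 was highest in both groups for GREM1, SMAD5 and BMPR2, replicate 2 for BMP4 and SMAD6, and replicate 3 for the ID genes and BMPR1A. What differed between the experiments is not given in the labels and was not tested.

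**Figure D4:**
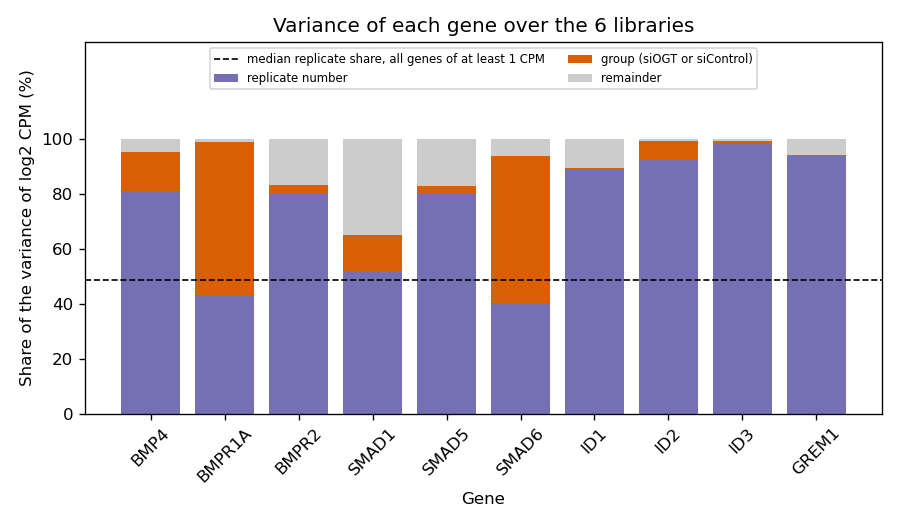
Share of the variance of log2 CPM over the 6 libraries (vertical axis, %) that goes with the replicate number, with the group and with neither, for each of the 10 genes, and as a dashed line the median replicate share of 48.6% over genes of at least 1 CPM. The replicate share is above this line in 8 of the 10 genes, BMPR1A and SMAD6 being the exceptions.

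The other genes of the pathway were read from lists ordered by role. Of 68 further genes, 60 were in the files, 49 were tested, and 9 were called higher and 7 lower in siOGT, a share of 32.7% beside 25.4% of all genes. The median log2 FC was 0.06, against 0.01 over all genes. By list, the called shares were 16.7% for ligands, 33.3% for receptors, 33.3% for other SMADs and 45.5% for antagonists and modulators. They were 23.1% for brakes, 45.5% for targets and 33.3% for E proteins, beside the same 25.4%. The lists held 3 to 13 tested genes, so each share rests on few genes. These calls depended on the pairing, since edgeR without the replicate block called none of the 49, with 8 at an unadjusted p under 0.05, and DESeq2 without it called 3. Leaving out replicate 1 reduced the 16 calls to 8.

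**Figure D5:**
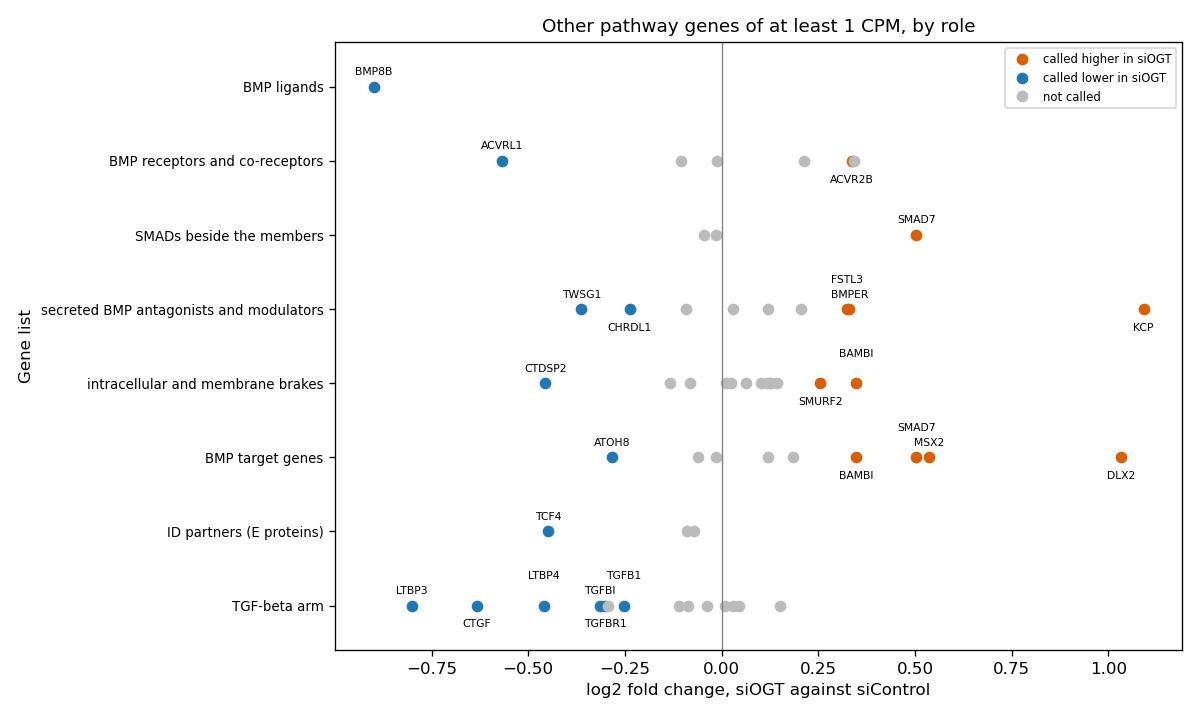
Log2 FC of siOGT against siControl (horizontal axis) for further pathway genes and for genes of the TGF-β arm with a mean of at least 1 CPM, in rows by role, coloured where edgeR with the replicate block called them. SMAD7, BAMBI, MSX2 and DLX2 lie to the right of 0 and ATOH8 to the left among the BMP targets, and in the TGF-β arm the 6 called genes of the 14 considered lie to the left.

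Among 6 other ligand genes tested, BMP8B was called, with 6.25, 6.87 and 5.37 CPM in siControl and 2.89, 3.49 and 3.51 CPM in siOGT (log2 FC -0.90, SE 0.159, adjusted p = 5.505e-04). The groups were apart, but BMP8B is nearly identical to BMP8A and its counts were fractional in all 6 libraries, so the assignment of these reads is uncertain. GDF6, the most abundant ligand that was not called, stayed below 1 CPM in every library.

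Of 6 further receptors and co-receptors, ACVRL1, a type I receptor best known from endothelium, fell from 3.33, 3.54 and 3.65 CPM in siControl to 2.15, 2.38 and 2.57 CPM in siOGT (log2 FC -0.57, adjusted p = 0.03713). ACVR2B, a type II receptor for activins and BMPs, was at 8.87, 8.17 and 8.10 CPM in siControl and at 12.2, 8.21 and 11.6 CPM in siOGT (log2 FC 0.34, adjusted p = 0.04803), its second pair being level. Both lay near the threshold, and neither was called by DESeq2. ACVRL1 had an adjusted p of 0.1669, 0.1023 and 0.07492 without replicate 1, 2 and 3, and ACVR2B one of 0.2897 without replicate 1 and 0.2461 without replicate 3. ENG, the co-receptor of ACVRL1 and abundant in these cells, was at 511 ± 49.6 CPM in siControl and 506 ± 37.1 CPM in siOGT and was not called (adjusted p = 0.9246).

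The inhibitory SMADs were called in opposite directions by edgeR. SMAD7, which blocks both TGF-β and BMP receptors, was at 5.61, 6.29 and 7.17 CPM in siControl and at 10.5, 6.76 and 10 CPM in siOGT, higher in siOGT in all 3 pairs (log2 FC 0.50, SE 0.141, adjusted p = 0.01427), whereas SMAD6 fell in all 3. Within a library the ratio of SMAD7 to SMAD6 per length was 0.21, 0.21 and 0.26 in siControl and 0.52, 0.26 and 0.44 in siOGT, log2 differences of 1.28, 0.27 and 0.73. The ratio was chosen after its values were seen and was not tested. SMAD7 lost its call without replicate 1 (log2 FC 0.30, adjusted p = 0.248) and without replicate 3 (0.51, adjusted p = 0.05169). DESeq2 with the replicate block did not call SMAD7 either (adjusted p = 0.0812), so that under this fit neither inhibitory SMAD passed the test. SMAD4, the partner of all signal-carrying SMADs, was at 58.0 ± 1.78 and 56.3 ± 4.85 CPM (adjusted p = 0.7079).

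Of 11 further secreted antagonists and modulators, 3 rose and 2 fell while GREM1 did not pass the test. TWSG1, which forms complexes with BMPs and chordin-type proteins, fell from 191, 217 and 177 CPM in siControl to 144, 160 and 149 CPM in siOGT with no overlap (log2 FC -0.36, SE 0.066, adjusted p = 7.111e-04). CHRDL1, a chordin-like antagonist, also fell (log2 FC -0.24, adjusted p = 0.03776). KCP, a cysteine-rich protein reported to enhance BMP signalling, rose from 1.57, 1.49 and 2.65 CPM to 5.52, 2.23 and 4.70 CPM (log2 FC 1.09, SE 0.231, adjusted p = 0.002245). The extracellular regulator BMPER rose by a log2 FC of 0.33 (adjusted p = 0.003846) and the follistatin-like FSTL3, which binds activins, by 0.33 (adjusted p = 0.009357). Without replicate 1 the adjusted p was 0.08249 for KCP, 0.1596 for FSTL3 and 0.314 for CHRDL1, and without replicate 2 it was 0.06459 for CHRDL1. CHRDL1 was also not called by DESeq2 with the replicate block (adjusted p = 0.1453) or with library totals alone (adjusted p = 0.05989). CRIM1, a membrane protein that tethers BMPs, was at 391 ± 55.2 CPM in siControl and 450.0 ± 54.2 CPM in siOGT (log2 FC 0.21, adjusted p = 0.0603), and it was called without replicate 3 (log2 FC 0.29, adjusted p = 0.00836).

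Among 13 brakes within the cell or at its membrane, 2 were higher and 1 was lower. CTDSP2, a phosphatase reported to act on SMADs, fell in all 3 pairs and without overlap, from 233, 300.01 and 261 CPM to 167, 227 and 185 CPM in the order of replicates (log2 FC -0.46, SE 0.064, adjusted p = 7.028e-05). SMURF2, a ubiquitin ligase for SMADs and receptors, rose (log2 FC 0.26, adjusted p = 0.01482), with fractional counts in all 6 libraries. BAMBI, a receptor without kinase whose composite sequence is printed beside that of ID1, was at 13.4, 15.4 and 13.3 CPM in siControl and at 13.4, 22.7 and 18.2 CPM in siOGT (log2 FC 0.35, adjusted p = 0.02191). Its first pair was level and the other 2 rose. BAMBI lost its call without replicate 2 (adjusted p = 0.1752) or 3 (adjusted p = 0.1072) and in DESeq2 with the replicate block (adjusted p = 0.106), and SMURF2 without replicate 1 (adjusted p = 0.08755) or 2 (adjusted p = 0.2). FKBP1A, which guards type I receptors, was at 566 ± 51.4 and 613.5 ± 42.5 CPM (adjusted p = 0.2724).

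The target genes did not move as 1 group. Of 11 targets tested besides ID1, ID2, ID3 and SMAD6, 4 were called higher and 1 lower. SMAD6, itself a BMP target, was called lower and is not in this count. DLX2, a homeobox factor, rose from 2.51, 2.24 and 5.12 CPM to 5.55, 4.76 and 9.62 CPM, by close to the same factor in each pair (log2 FC 1.03, SE 0.152, adjusted p = 1.057e-04). MSX2, another homeobox factor, rose from 4.68, 6.99 and 8.81 CPM to 8.11, 8.66 and 12.8 CPM (log2 FC 0.54, adjusted p = 0.00407; 0.06014 without replicate 1). SMAD7 and BAMBI are the other 2, also counted above. ATOH8, a helix-loop-helix factor, fell from 64.3, 78.1 and 92.7 CPM to 56.2, 66.9 and 69.0 CPM (log2 FC -0.28, adjusted p = 0.006145). RUNX2, an osteoblast factor and the most abundant target that was not called, was at 45.1 ± 2.19 and 51.2 ± 3.44 CPM (log2 FC 0.18, adjusted p = 0.05939). HEY1 and HEY2 had too few reads for a fold.

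The E proteins, which ID proteins hold back, had 1 call among 3. TCF4 fell in all 3 pairs, from 17.2, 27.1 and 23.0 CPM to 11.8, 22.1 and 16.04 CPM (log2 FC -0.45, SE 0.088, adjusted p = 0.001287). TCF3, the most abundant, was at 263 ± 46.3 and 250.1 ± 42.4 CPM (adjusted p = 0.501).

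The sister branch of the same superfamily, the TGF-β arm, was listed for comparison, and 6 of the 14 genes reported here were called lower, where 12.7% of all genes were. The list is not complete, so this share does not summarise the arm. LTBP3 and LTBP4, which bind latent TGF-β in the matrix, fell by 0.80 (adjusted p = 8.628e-07) and by 0.46 (adjusted p = 9.414e-05) on the log2 scale. CTGF, a matricellular target of TGF-β and of YAP, fell by 0.63 (adjusted p = 1.007e-05), and the matrix protein gene TGFBI fell by 0.31 (adjusted p = 0.003429). TGFBR1, the type I receptor for TGF-β, fell by 0.30 (adjusted p = 0.003723; 0.063 without replicate 1). The ligand gene TGFB1, the last of the 6, fell by 0.25 (edgeR adjusted p = 0.008371). Without the replicate block edgeR called 1 of the 14 genes, LTBP3, and DESeq2 called 3. SMAD3, which carries the TGF-β signal, was at 189 ± 6.01 and 175 ± 16.2 CPM (adjusted p = 0.2435). Whether the arms of the pathway differed from each other was not tested.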

How the data were processed

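Polyadenylated RNA of 6 LX-2 cultures was sequenced paired-end. The authors aligned reads to hg38 with Bowtie2 2.3.5.1 and counted them per gene with RSEM 1.3.1 in a strand-specific mode. The deposited values are RSEM expected counts, not normalised, so that reads with several possible origins were split among genes. GENCODE is named, but some symbols are older forms, so the gene models are not known exactly. A table of the authors' comparison (mean counts, log2 fold changes and adjusted p-values from DESeq2 1.36.0) was not used.

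Expected counts were rounded, and a gene needed a total of 10 or more. Under R 4.3.3 and edgeR 4.0.16, TMM-scaled counts entered a quasi-likelihood F test (two-sided) of the group with a block for the replicate, with Benjamini-Hochberg adjustment over all 14853 genes. Standard errors and 95% confidence intervals came from the F statistic, and log2 CPM used a prior count of 2. TPM were computed over the 15706 genes with a transcript length. The study's methods pair samples of a replicate, and deviations from the group means correlated between same-numbered libraries by 0.69, 0.53 and 0.33 across 12373 genes, which are not independent replicates.

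The members and gene lists were chosen with earlier results of these data known. Named were the 10 genes, OGT, up to 5 called genes of at least 1 CPM per list with the largest change, the most abundant gene not called, and the 5 genes most like the ID genes. Markers, HEY genes and TGFB1 were named with their values seen. CTGF was matched as the older symbol of CCN2. Positions, lengths and sequence are from GENCODE 44 on hg38. Alternatives were fits without the block, DESeq2 1.42.0, other scalings and filters, and leaving out each pair. The tests were tried on simulated data into which the pairing by replicate was built. That trial therefore cannot show whether the block suits these libraries. A listed gene and some sequence matches are not reported here.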

Additional observations from a re-analysis of the deposited data

How the results depend on the processing

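The replicate block decided most calls. Without it edgeR called 130 genes in place of 3766, 0 of the 10 genes (0 also at an unadjusted p under 0.05) and 0 of the other pathway genes (8 at an unadjusted p under 0.05), with a log2 FC of -0.262 for BMP4 and -0.257 for SMAD6, and the common dispersion rose from 0.00449 to 0.0193. DESeq2 with the block called 2415 genes and 1 of the 10, BMP4, with SMAD6 at -0.267 and no longer called. DESeq2 with no replicate block called 849 genes, 0 of the 10 (0 at an unadjusted p under 0.05) and 3 of the other pathway genes, with BMP4 at -0.265 and SMAD6 at -0.26. Other scalings and filters gave 2 calls among the 10 and 15 to 17 among the other pathway genes, not all for the same genes: ACVR2B was lost with median-ratio size factors and filterByExpr and CHRDL1 with library totals alone, while CRIM1 was gained with library totals and without a filter and RUNX2 with library totals, where ENG turned to 0.01. Leaving out each pair in turn gave 1803 to 3439 called genes, 0 to 4 of the 10 and 8 to 16 of the other pathway genes. The log2 FC then ranged from -0.416 to -0.202 for BMP4, -0.318 to -0.207 for SMAD6, 0.051 to 0.344 for SMAD1, -0.01 to 0.303 for SMAD5, -0.114 to 0.021 for BMPR2, -0.214 to 0.167 for ID1, -0.112 to 0.054 for GREM1, -0.408 to 0.547 for GDF6, -0.059 to 0.067 for ENG, -0.099 to 0.04 for SMAD4 and -0.134 to 0.014 for TCF3. Other causes of these changes were not tested. OGT was called under all 10 alternatives, BMPR1A, BMPR2, ID1, ID2, ID3 and GREM1 under none. Below about 5 CPM, as for ID2, KCP and ACVRL1, few reads limit what can be told apart.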
